A study of Rattus norvegicus with 14 samples.

Results

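Transcription start site (TSS) use was compared between primary rat Schwann cells treated with a cAMP analog and adult rat sciatic nerve, to describe how much of the nerve's promoter use the treated cells reached, exceeded or did not reach. The members of the comparison were the candidate TSSs above 1 RPM (reads at a TSS scaled to the library's total reads) in at least 2 of the 5 libraries of these groups, which held for 4708 of the 4993 candidate TSSs in the table and for 2945 genes. Each candidate lay near an active promoter mark and a SOX10 binding site of sciatic nerve and was active in that nerve, with a mean of at least 1.82 RPM. A TSS that is silent in nerve was therefore not part of the table, and no statement is made about such sites.

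The nerve group held 2 libraries, each from an independent wild-type adult rat nerve (age 6 to 9 months), with no treatment. The cAMP group held 3 libraries of wild-type primary rat Schwann cells, bought as a cell stock, which had received 250 µM CPT-cAMP, a membrane-permeable cAMP analog, for 3 days in medium with 5% fetal bovine serum. The control group of 3 libraries differed in receiving vehicle, and its levels are given beside those of the treated cells for many of the genes named. Neuregulin and forskolin, which were part of the maintenance medium, had been withdrawn from all cultured cells before treatment, and the dishes carried poly-L-lysine and laminin but no axons. The cell libraries came from independent populations of cells, but whether these derived from separate animals is not stated, so p-values measure the spread between these libraries, which may be technical. Nerve libraries were sequenced on a HiSeq and cell libraries on a NovaSeq, so tissue, culture and sequencer cannot be told apart, and only differences of at least 4-fold were called.

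Schwann cells wrap peripheral axons in myelin, a compacted membrane that is rich in a small set of proteins and in cholesterol. In development, axonal contact raises cAMP in the immature Schwann cell, and the transcription factors SOX10 and EGR2 then turn on genes for myelin proteins and lipid synthesis, while genes of the immature state, such as Ngfr and Jun, are shut down. A cAMP analog is used in culture to stand in for part of the axonal signal.

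The libraries held 29895599 and 38377828 reads in nerve, 79940274, 56075871 and 68176817 in cAMP-treated cells and between 51438602 and 65432361 in control cells. A value of 3 reads, used as the floor, corresponded to 0.1 and 0.0782 RPM in the nerves and to between 0.0375 and 0.0535 RPM in the cAMP-treated libraries. The median standard deviation between replicates was 0.364 in nerve and 0.311 in treated cells on the log2(RPM + 1) scale. PCR copies are counted as separate reads, so floors cover counting error only. In every sentence below a level is an RPM value of 1 TSS unless a sum is named, and a difference is the log2 fold change of RPM + 1 with its standard error (SE), positive where treated cells were higher. Means are given with their standard deviation (SD, n = 2 nerves or 3 cell libraries).

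The differences ran in both directions, with 457 TSSs higher in cAMP-treated cells (9.71% of those tested) and 430 lower (9.13%), by limma at an adjusted p under 0.05 and a change of at least 4-fold. In all 887 the ranges of nerve and treated libraries were apart, as they were at 3154 of the 4708 TSSs tested. By position, 42.6% of the TSSs were within 2-fold of nerve, 9.81% at least 4-fold above it and 9.22% at least 4-fold below it. Control cells stood beside these with 38.4%, 11% and 11.4%, a comparison that uses the same nerve libraries. For 289 TSSs (6.14%) the 95% interval of the difference lay wholly within 2-fold. The plot of mean levels in both groups shows calls on both sides, with the largest difference downward at Pmp22 and the largest upward at Ngfr.

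**Figure D1:**
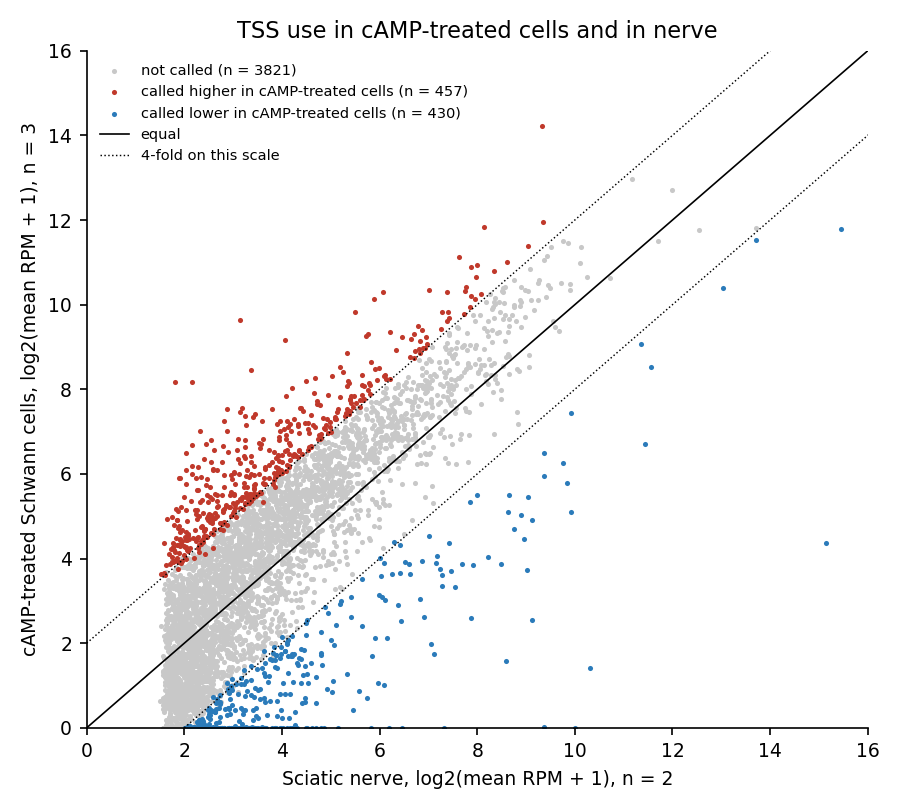
Mean level of each of the 4708 TSSs tested in sciatic nerve (x axis, n = 2) and in cAMP-treated Schwann cells (y axis, n = 3), both as log2(mean RPM + 1). Red points are the 457 TSSs called higher in treated cells and blue points the 430 called lower, the solid line marks equal levels and the dotted lines a 4-fold difference on this scale, and the 2 blue points farthest right are Fth1 and Pmp22.

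The balance of directions depended on the scale. A few transcripts took much of each nerve library, since the 10 highest candidate TSSs held 13.3% and 13.8% of all reads in the nerves and between 5.73% and 5.94% in treated cells. With libraries scaled by median ratios, which sets equal the median TSS among those with a read in all 5 libraries, 145 TSSs were higher and 812 lower, and the median difference of all TSSs moved from 0.33 to -0.40. Of the calls on the RPM scale, all 430 lower ones and 145 of the 457 higher ones were also called on the median-ratio scale, and none changed direction. Counting 1 TSS per gene, the one most used over both groups, 424 genes were higher (14.4%) and 116 lower (3.94%), with a median of 0.90, against 136 and 209 and a median of 0.12 on the median-ratio scale. Differences of gene groups below are therefore read against these medians.

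The filter admitted TSSs by different routes, and this sets part of the counts. Of the members, 3579 passed in both groups on their own, 835 passed through the nerve libraries alone and 206 through the treated libraries alone, and the last 88 passed only with libraries of both. The 835 held 301 of the lower calls and the 206 held 34 of the higher calls. No read was seen in any treated library at 326 tested TSSs. All 285 candidates that were not tested were under 1 RPM in each treated library.

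Among the lists with at least 5 genes tested, structural myelin genes had the lowest median difference from nerve. Of 29 structural myelin genes listed, 14 had a tested TSS, and of these 8 were lower than in nerve (57.1%, against 3.94% of all genes), 3 were higher (21.4%, against 14.4%) and 3 were not called. The median difference was -2.23 (-3.07 on the median-ratio scale) beside 0.90 for all genes. In bulk samples, fewer cells of a type and less RNA per cell cannot be told apart. The 8 lower members include Prx, which passed the filter on low values through the nerve libraries alone and so had to differ. The name of the list is broad, since it also covers a phosphatase (Mtmr2), a serine incorporator (Serinc5) and a junctional adhesion molecule (Jam3). Mtmr2 and Serinc5 were among the 3 higher members, and Mtmr2 lost its higher call on the median-ratio and TMM scales. The summed level of the 14 main TSSs was 65770 and 66830 RPM in the nerves, 7672, 6614 and 6976 RPM in treated cells and between 2061 and 2100 RPM in control cells. Against control cells 8 of the 14 were higher in treated cells and none lower (2.75% and 1.32% of all genes), by the same test and fold threshold.

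**Figure D2:**
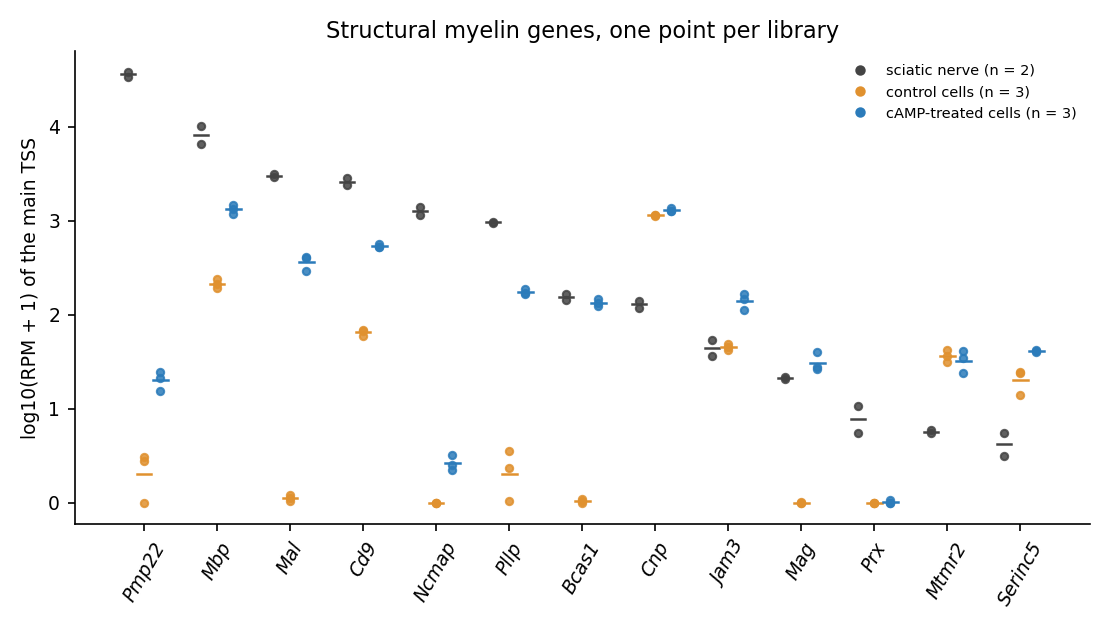
Level of the main TSS of 13 of the 14 structural myelin genes tested, as log10(RPM + 1), with 1 point per library and a line at each group's mean. Genes are ordered by nerve level, and Pmp22 to Pllp and Prx lie below nerve in treated cells, Bcas1 and Mag lie near it, and Cnp, Jam3, Mtmr2 and Serinc5 lie above it.

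Mbp, the myelin basic protein that holds the cytoplasmic faces of the membrane together, was at 10142 and 6615 RPM in nerve and at 1490, 1178 and 1340 RPM in treated cells, 15.9% of the nerve mean and a difference of -2.62 (SE 0.19, adjusted p 5.1e-05). Control cells were at 194, 212 and 239 RPM. The nerves differed from each other at Mbp, yet the lower nerve was far above every treated library.

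Mal, Pllp and Cd9, membrane proteins of myelin that were low in control cells, reached between 12.3% and 20.6% of nerve. Mal, a proteolipid of myelin membrane sorting, was at 3124 and 2907 RPM in nerve, at 406, 294 and 412 RPM in treated cells and at or under 0.214 RPM in each control library. Pllp, another myelin proteolipid, was at 981 and 960 RPM in nerve and at 165, 170 and 185 RPM in treated cells, with at most 2.52 RPM in control cells. Cd9, a tetraspanin, was at 2837 and 2414 RPM in nerve and at 566, 526 and 528 RPM in treated cells, above the 58.4, 67.9 and 67 RPM of control cells. Their differences from nerve were -3.04, -2.48 and -2.28, with SE of 0.16, 0.10 and 0.10 and adjusted p of 1.5e-05, 7e-06 and 9.5e-06.

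At Ncmap and Prx the treated cells stayed far below nerve. Ncmap, a small protein of non-compact peripheral myelin, was at 1399 and 1152 RPM in nerve and at 1.54, 2.21 and 1.25 RPM in treated cells, 0.131% of the nerve mean, and no control library held a read. Prx, the periaxin that links the Schwann cell membrane to its cytoskeleton, was low in nerve too, at 4.58 and 9.8 RPM, and only the third treated library held a read there (0.0733 RPM). The difference at Ncmap was -8.91 (SE 0.25, adjusted p 1.3e-06). Prx passed the filter on low values through the nerve libraries alone, so its difference of -2.92 (SE 0.43) is given as a description.

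Other myelin genes reached nerve or passed it. Bcas1, a protein of early myelinating glia, was at 164 and 143 RPM in nerve and at 133, 122 and 146 RPM in treated cells, with at most 0.107 RPM in control cells. The 95% interval of its difference ran from -0.52 to 0.13, within 2-fold of nerve, although the difference was -1.04 on the median-ratio scale. Mag, an adhesion molecule of the axon-facing membrane, was at 20 and 21.1 RPM in nerve and at 27.2, 39.2 and 25.4 RPM in treated cells, with an interval from -0.11 to 1.17. Cnp, an enzyme of non-compact myelin, was far above nerve at its main TSS, at 139 and 118 RPM in nerve against 1372, 1270 and 1274 RPM in treated cells. That difference was 3.34 (SE 0.11, adjusted p 3.2e-06), and control cells were already at 1165, 1143 and 1125 RPM. The TSS that was highest in nerve for Cnp was another one (rn5 chr10:88284002-88284046), at 168 and 157 RPM in nerve against 419, 375 and 397 RPM in treated cells, and its share of the gene's reads was 38% in nerve and 21.5% in treated cells.

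Serinc5, a multipass membrane protein of the serine incorporator family, was at 4.58 and 2.19 RPM in nerve and at 40.3, 39.1 and 41.7 RPM in treated cells (3.29, SE 0.35), with a control mean of 20 ± 6.01 RPM. Mtmr2, a phosphoinositide phosphatase, was at 4.48 and 4.95 RPM in nerve and at 40, 23.3 and 34 RPM in treated cells, with a control mean of 35.5 ± 5.32 RPM (2.52, SE 0.34, and 1.76 without a call on the median-ratio scale). Both were called on the RPM scale with adjusted p of 0.00031 and 0.001. Jam3, a junctional adhesion molecule, was not called, with means of 44.3 ± 11.9 and 141 ± 28.1 RPM in nerve and treated cells and 44.6 ± 3.81 RPM in control cells.

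On the log2(RPM + 1) scale Pmp22 held the TSS with the largest difference of all those tested, while its second TSS differed far less. The gene encodes a tetraspan protein of compact myelin and has alternative first exons. Its upstream TSS (rn5 chr10:49316968-49317054, + strand) was at 34274 and 38188 RPM in the nerves, at 23.9, 20.2 and 14.5 RPM in treated cells and at 0, 1.82 and 2.04 RPM in control cells. Treated cells thus held 0.0539% of the nerve level, with no overlap and a difference of -10.81 (SE 0.19, adjusted p 3.4e-07). Its downstream TSS (rn5 chr10:49319494-49319573) was at 6270 and 5680 RPM in nerve, at 3991, 3184 and 3302 RPM in treated cells and had a mean of 412 RPM in control cells. There the treated cells held 58.5% of the nerve level, a difference of -0.78 with a 95% interval from -1.06 to -0.50, which was not a call.

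The reads of the gene were divided in opposite ways in nerve and in cells. The upstream TSS held 81% and 83.7% of the Pmp22 reads in the nerves and between 0.412% and 0.585% in treated cells, where the downstream TSS held 92.5%, 92.5% and 93.7%. Control cells had nearly the same division as treated cells, with 88.1%, 88.2% and 85.4% at the downstream TSS. Summed over its 22 candidate TSSs, Pmp22 in treated cells held 8.55% of the nerve mean and in control cells 1.07%.

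**Figure D3:**
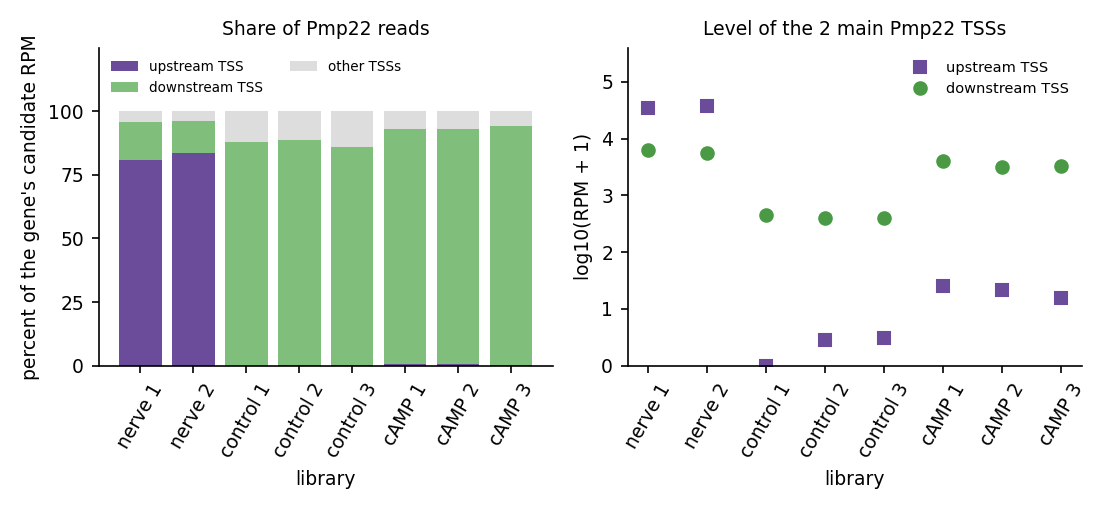
Left, percent of the Pmp22 candidate reads at the upstream, the downstream and the other TSSs in each of the 8 libraries; right, the levels of the 2 main TSSs as log10(RPM + 1). The upstream TSS holds most reads in the 2 nerves and under 1% in each cell library, whereas the downstream TSS is within 2-fold of the nerve mean in all 3 treated libraries.

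The sequence around the annotated start is shown for Pmp22 and for 3 other genes that lay far from nerve. Of these, Ncmap was far below nerve, and Vim and Id2 were far above it. Sequences are from RefSeq (build GRCr8), 5′ to 3′ on the strand of the gene, from 120 bases before to 30 bases after the annotated start. That build is not the one of the measured TSSs, and which measured TSS an annotated start corresponds to was not established. Capitals mark a CCAAT box (CCAAT or its reverse complement ATTGG) or a TATA box (TATAAA).
Pmp22, chr10:48294812-48294961 (+ strand): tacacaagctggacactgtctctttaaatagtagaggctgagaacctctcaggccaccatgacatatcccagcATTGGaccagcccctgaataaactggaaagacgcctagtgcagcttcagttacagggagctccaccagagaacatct
Ncmap, chr5:152902385-152902534 (- strand): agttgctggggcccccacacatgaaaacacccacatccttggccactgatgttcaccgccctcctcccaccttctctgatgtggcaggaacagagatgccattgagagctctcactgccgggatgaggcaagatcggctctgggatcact
Vim, chr17:81577141-81577290 (+ strand): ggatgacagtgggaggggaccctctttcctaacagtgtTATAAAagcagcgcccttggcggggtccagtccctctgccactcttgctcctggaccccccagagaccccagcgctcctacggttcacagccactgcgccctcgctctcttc
Id2, chr6:47470966-47471115 (- strand): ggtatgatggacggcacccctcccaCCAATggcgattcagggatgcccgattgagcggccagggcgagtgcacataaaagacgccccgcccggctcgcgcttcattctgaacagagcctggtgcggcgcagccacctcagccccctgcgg
A CCAAT box began 47 bases before the start in Pmp22 and 95 bases before it in Id2, and a TATA box began 82 bases before it in Vim. Of the 2945 genes 2362 matched a RefSeq promoter by symbol. On both strands of windows of this length, a CCAAT box was in 27.4% of the promoters of genes called higher, in 17.1% of those called lower, in 24.9% of those tested without a call and in 22.7% of all 33469 promoters. In the same order, the cAMP response element TGACGTCA was in 3.63%, 1.22%, 2.66% and 1.37%. The SOX-like hexamer ACAAAG was in 6.98%, 2.44%, 5.65% and 9.64%, and TATAAA in 5.03%, 4.88%, 2.85% and 7.5%. The median GC content was between 63.3% and 65.3% in the tested classes and 53.3% in all promoters, so the genes without a call are the closer reference. The 82 windows of lower genes are few, and a match is a description of letters and not of binding.

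The 12 genes farthest below nerve, by the rule for named genes, mixed myelin genes with genes of other kinds. After Pmp22 the second largest gap in log2(RPM + 1) was at Igfbp6, an insulin-like growth factor binding protein. It was at 678 and 1372 RPM in nerve while no treated library held a read. Nerve was thus at least 22800-fold higher, taking the mean 3-read floor of the treated libraries. As plain ratios of RPM, Igfbp6 and Fxyd1 lay farther below nerve than Pmp22, where nerve was 1860-fold higher. Fxyd1, a regulator of the sodium pump also called phospholemman, was at 642 and 678 RPM in nerve, at 24, 34.8 and 32.2 RPM in control cells and at no more than 0.0178 RPM in treated cells, at least 14700-fold lower than nerve on the same floor. This TSS held 51% of the Fxyd1 reads of nerve, and summed over all its candidate TSSs the gene was at 11.6, 2.94 and 0.0147 RPM in the treated libraries, 0.375% of nerve, with the first library far above the third. At the named TSS of Fxyd1 treated cells were farther from nerve than control cells, and the difference from control cells was -4.94 (adjusted p 0.00047). Pla2g16, a phospholipase of lipid metabolism, was at 402 and 370 RPM in nerve and at 5.44, 0 and 0.528 RPM in treated cells, and the treated libraries differed widely among themselves. At these TSSs Igfbp6, Fxyd1 and Pla2g16 passed the filter through the nerve libraries alone, so their gaps from nerve are given as a description.

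Ifitm2, an interferon-induced membrane protein, was at 428 and 614 RPM in nerve and at 7.72, 15.3 and 13.7 RPM in treated cells, with a control mean of 18.7 ± 9.79 RPM. Sult1a1, a sulfotransferase, was at 143 and 123 RPM in nerve and at 2.8, 0.0178 and 6.03 RPM in treated cells, with no read in control cells. Ebf1, a transcription factor, was at 48.7 and 55.7 RPM in nerve and at 1.28, 0.0892 and 0.543 RPM in treated cells, and at no more than 0.0194 RPM in control cells. The differences were -5.33 at Ifitm2 (adjusted p 2.2e-05) and -5.47 at Sult1a1 (adjusted p 0.0011). Ebf1 passed the filter through the nerve libraries alone, so its difference of -5.08 is given as a description. Cav1, the coat protein of caveolae, was named at a TSS that held 36.5% of its nerve reads, at 62.1 and 72.8 RPM in nerve and at most 2.41 RPM in treated cells. That TSS too passed the filter through the nerve libraries alone. The main TSS of Cav1 was also lower, at 108 and 118 RPM against 7.76, 6.95 and 6.98 RPM, with a control mean of 0.376 RPM.

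Fth1, the heavy chain of the iron store ferritin, entered the named genes through a minor TSS with 0.154% of its nerve reads, but its main TSS was the highest TSS of both nerves. The main TSS of Fth1 was at 42522 and 47480 RPM in nerve, at 3688, 3523 and 3454 RPM in treated cells and at 4083, 3652 and 3955 RPM in control cells, a difference from nerve of -3.66 (SE 0.08). Treated cells held 7.9% of the nerve level and control cells 8.66%. Cryab, a small heat shock protein, was at 2703 and 2821 RPM in nerve at its main TSS, at 115, 95.6 and 98.9 RPM in treated cells (3.73% of nerve) and at 2293, 2224 and 2279 RPM in control cells (82%). The order of treated and control cells was not the same at every TSS of Cryab, since the next in nerve (rn5 chr8:53775829-53775839) had means of 395 RPM in nerve, 4.3 RPM in control cells and 33.4 RPM in treated cells. Summed over its candidate TSSs, Cryab was at 4.48% of nerve in treated cells and at 60% in control cells. Fth1, Pabpc1, the tubulins and the ribosomal proteins have near-identical copies in the genome, and how reads that map to several places were treated is not given in the sources used here, so their levels are uncertain.

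**Figure D4:**
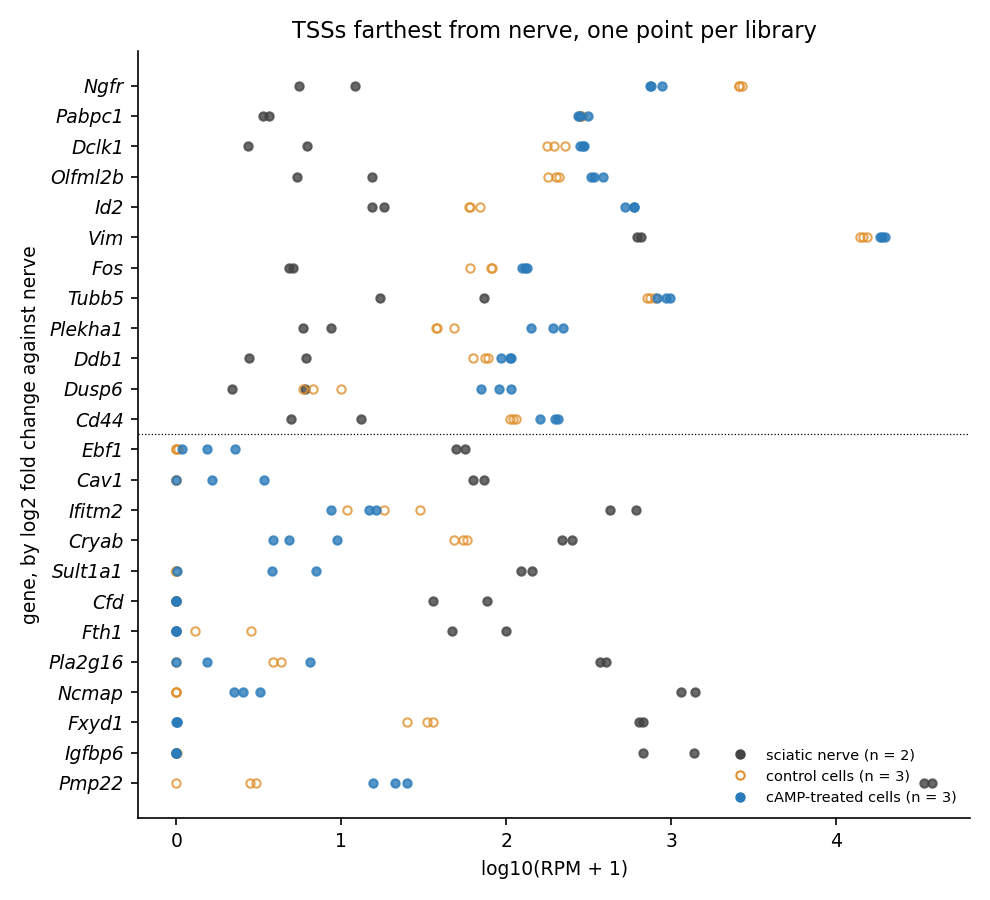
Level at the 24 TSSs farthest from nerve, as log10(RPM + 1), with 1 point per library for nerve (grey), control cells (open orange) and cAMP-treated cells (blue). The 12 genes above the dotted line are higher and the 12 below it lower than nerve in treated cells, and control cells lie on the same side of nerve as treated cells except at Dusp6, where they overlap nerve.

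The gene farthest above nerve was a marker of the immature cell. Ngfr, the low-affinity neurotrophin receptor of immature and injury-responding Schwann cells, was at 4.52 and 11.1 RPM in nerve and at 746, 760 and 877 RPM in treated cells, which is 102 times the nerve mean. Control cells were higher still, at 2694, 2587 and 2583 RPM, so that treated cells lay between control cells and nerve. Vim, the intermediate filament vimentin, was the highest TSS of all cell libraries, at 622 and 659 RPM in nerve and at 19844, 18983 and 18550 RPM in treated cells. Control cells were at 15370, 14062 and 14529 RPM. Cd44, a hyaluronan receptor, was at 12.1 and 3.93 RPM in nerve and at 204, 160 and 198 RPM in treated cells, with a control mean of 109 ± 5.03 RPM.

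Of the 12 genes farthest above nerve, all but Ngfr had a mean farther from nerve in treated than in control cells, though by little at Pabpc1. Id2, an inhibitor of basic helix-loop-helix factors, was at 14.3 and 17.2 RPM in nerve, at 58.6, 68.4 and 59.4 RPM in control cells and at 594, 521 and 599 RPM in treated cells. Dusp6, a phosphatase that acts on the kinase ERK, was at 5.05 and 1.17 RPM in nerve, at 5.79, 4.84 and 8.98 RPM in control cells and at 69.8, 106 and 90.1 RPM in treated cells. Plekha1, a phosphoinositide-binding adaptor, was at 7.73 and 4.85 RPM in nerve, at 47.6, 36.4 and 37.3 RPM in control cells and at 219, 191 and 140 RPM in treated cells. The differences of treated from control cells at these 3 genes were 3.18, 3.59 and 2.14, with adjusted p of 0.00011, 0.0018 and 0.0038, and those from nerve were 5.10, 4.61 and 4.66.

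Fos, an immediate early transcription factor, was at 4.11 and 3.86 RPM in nerve and at 124, 129 and 134 RPM in treated cells. Dclk1, a microtubule-associated kinase, was at 5.18 and 1.72 RPM in nerve and at 295, 279 and 293 RPM in treated cells, and Olfml2b, a secreted matrix protein, had means of 9.38 ± 7.07 and 350 ± 33.2 RPM. Pabpc1, the poly(A) binding protein, had means of 2.52 ± 0.216 and 289 ± 22.1 RPM at a TSS with 53.8% of its nerve reads, Tubb5, a beta-tubulin, of 44.4 ± 39.8 and 911 ± 88 RPM, and Ddb1, a subunit of a ubiquitin ligase, of 3.45 ± 2.41 and 101 ± 7.36 RPM. The means of control cells were 73.6, 200, 195, 280, 754 and 70.9 RPM in the order named, all above nerve. Of the 12 highest genes all were also called on the median-ratio scale.

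Among 8 tested regulators of the Schwann cell lineage none was called lower than nerve, which is near the share of all genes (3.94%). Sox10 was at 48.6 and 42.4 RPM in nerve, at 123, 117 and 137 RPM in treated cells and at 136, 149 and 140 RPM in control cells. Egr2, the factor that drives myelination, was absent or near it in control cells (at most 0.0175 RPM) and at 34.6, 35 and 32.5 RPM in treated cells, while the nerves differed from each other at 28.1 and 4.72 RPM. The difference of Egr2 from nerve was 1.44 with an interval from -0.02 to 2.90, so these 2 nerves do not place it. Jun, which opposes myelination, was at 17.5 and 15.2 RPM in nerve, at 55.1, 59.7 and 67.4 RPM in treated cells and at 606, 541 and 475 RPM in control cells. Of 8 regulators tested, 2 were higher and none lower, on the median-ratio scale too (25% and 0% on the RPM scale, against 14.4% and 3.94% of all genes). They were Id4, a relative of Id2 (means of 37.1 ± 12.2 and 337 ± 22.8 RPM), and Wwtr1, the Hippo pathway coactivator TAZ (means of 8.4 ± 1.12 and 98.9 ± 4.22 RPM).

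Of 12 genes of the immature and repair Schwann cell tested, 5 were higher than nerve, namely Ngfr, Id2, Vim, Ncam1 and Id3, and 1 was lower (41.7% and 8.33%, against 14.4% and 3.94% of all genes). The median difference of the list was 1.53, and 0.74 on the median-ratio scale, and for control cells against nerve it was 4.38. Against control cells 5 of the 12 were lower in treated cells and 1 was higher (1.32% and 2.75% of all genes), with a median of -1.72. Ncam1, a neural adhesion molecule, was at 4.01 and 3.65 RPM in nerve and at 80.7, 59.5 and 71.8 RPM in treated cells, beside 78.2, 103 and 93.4 RPM in control cells. Id3 had means of 217 ± 13.7 and 1355 ± 61.4 RPM (1421 ± 36.3 RPM in control cells), and lost its call on the median-ratio scale (1.80). The lower member was Igfbp7, a secreted binding protein, at 71.4 and 110 RPM in nerve, at 11.4, 14.3 and 16.7 RPM in treated cells and at 3686, 5559 and 4166 RPM in control cells. Nerve thus lay between the 2 cultured groups at Igfbp7. S100a4, a calcium-binding protein, was within 2-fold of nerve in treated cells, with means of 957 ± 7.41 and 1291 ± 45.4 RPM, and at 4242 ± 143 RPM in control cells.

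Among 18 glial signalling and adhesion genes tested, 7 were higher (38.9%, against 14.4% of all genes) and 2 lower (11.1%, against 3.94%), with a median of 1.45, and on the median-ratio scale the counts were 2 and 3 with a median of 0.72. With all TSSs of a gene summed, 4 were higher and 2 lower, and Sema3b and Gldn were at 1.77 and 1.86 without a call. Sema3b, a secreted semaphorin, was at 123 and 96.3 RPM in nerve and at 769, 676 and 722 RPM in treated cells, with a mean of 368 RPM in control cells. Gldn, the gliomedin that gathers sodium channels at nodes, was at 36.6 and 31.3 RPM in nerve and at 171, 171 and 182 RPM in treated cells, with a mean of 62.8 RPM in control cells. Lpar1, a receptor for lysophosphatidic acid, was at 18.4 and 14.1 RPM in nerve and at 184, 142 and 127 RPM in treated cells (control mean 21.9 RPM), and kept its call on the median-ratio scale, as Ncam1 did. The lower members were Itgb4, a laminin receptor subunit (means of 48.9 ± 2.42 and 4.3 ± 0.778 RPM), and Lgi4, a secreted signal needed for axonal sorting (32.4 ± 1.98 and 2.9 ± 0.809 RPM), which was named after its values were seen. This Lgi4 TSS held 31.5% of the gene's nerve reads. Summed over its candidate TSSs, Lgi4 in treated cells held 23.9% of nerve, and not all of these TSSs were lower. Sostdc1, a secreted antagonist of BMP and Wnt signals, was at 134 and 251 RPM in nerve, at 393, 361 and 429 RPM in treated cells and at no more than 2.45 RPM in control cells, a difference from nerve of 1.10 without a call.

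Cholesterol and lipid synthesis genes, which a myelinating cell uses to build membrane, lay close to the median of all genes. Of 23 tested, 4 were higher (17.4%, against 14.4% of all genes), none was lower and 14 were within 2-fold of nerve, with a median of 0.94 in treated cells and -0.41 in control cells. On the median-ratio scale 1 was higher and 16 were within 2-fold. Idi1, an enzyme of isoprenoid synthesis, was at 287 and 304 RPM in nerve and at 316, 249 and 274 RPM in treated cells, against 116, 93.4 and 92.8 RPM in control cells. Its interval of -0.39 to 0.22 was within 2-fold of nerve, although the difference was -0.93 on the median-ratio scale. Hmgcs1, an early enzyme of cholesterol synthesis, was at 124 and 103 RPM in nerve and at 250, 185 and 220 RPM in treated cells (0.94, SE 0.16), with a control mean of 54.8 ± 7.3 RPM. Acly, which makes acetyl-CoA in the cytosol, was the member called on both scales, at 9.2 and 19.5 RPM in nerve and at 112, 98 and 121 RPM in treated cells, with a control mean of 49 ± 3.36 RPM.

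The 6 most abundant genes whose interval lay within 2-fold of nerve were Sparc, Tuba1a, S100b, S100a10, Cd81 and S100a4. S100b, a calcium-binding protein long used as a Schwann cell marker, was at 1869 and 1520 RPM in nerve, at 1635, 1584 and 1520 RPM in treated cells and at 1915, 1811 and 1911 RPM in control cells. The groups overlapped, with an interval of the difference from -0.35 to 0.16 (-0.94 on the median-ratio scale). Sparc, a secreted matrix protein, had means of 4068 ± 150 and 6719 ± 264 RPM, and Tuba1a, an alpha-tubulin, of 3334 ± 521 and 2882 ± 157 RPM. On the median-ratio scale the difference of Tuba1a was -1.05, just past 2-fold.

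The lists of growth and metabolism are given beside the share over all genes, of which 14.4% were called higher and 3.94% lower, so that more higher than lower calls is itself the background. Few members held a call on the median-ratio scale. Of 44 ribosomal protein genes 13 were higher and none lower, with a median of 1.72, and on the median-ratio scale Rplp0 alone was higher (median 0.88). Of 12 proliferation genes 7 were higher and 3 remained higher on the median-ratio scale, namely Tubb5, the histone gene H2afx and the cyclin gene Ccnd2. Ldha, which turns pyruvate into lactate, was at 276 and 283 RPM in nerve and at 3877, 3618 and 3414 RPM in treated cells, the widest gap of 13 glycolysis genes, of which 3 were higher. Control cells were at 2141, 2051 and 2045 RPM at Ldha. Of 43 respiratory chain and ATP synthase genes 9 were higher and none lower, led by Atp5f1a (means of 39.2 ± 4.13 and 465 ± 40.3 RPM), and 3 were higher on the median-ratio scale. Of 17 genes of ER folding and the unfolded protein response 5 were higher, led by the chaperone Hsp90b1 (means of 40 ± 2.95 and 292 ± 31.8 RPM), which alone held its call on the median-ratio scale. Control cells lay above nerve in these lists too, with medians of 1.37, 1.72, 1.26, 0.95 and 1.78 in the order named. No member of these lists was called between treated and control cells.

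Of 33 spliceosome and RNA processing genes 8 were higher, led by Hnrnpa1 (means of 15.9 ± 2.65 and 229 ± 29.4 RPM), and of 15 lysosome genes 6 were higher, led by the proton pump subunit Atp6v1a (means of 2.99 ± 0.878 and 43.2 ± 10.7 RPM). No member of either list was lower, and 3 and 2 were higher on the median-ratio scale. The medians of control cells against nerve were 1.47 and 0.89 in the same order. Of the mitochondrial ribosome 6.06% of the genes were higher (2 of 33), of the proteasome 11.1% (2 of 18) and of actin and intermediate filament genes 16.1% (5 of 31, led by Vim), against 14.4% of all genes. Another 2 actin and filament genes were lower, led by Cav1. For 9 tubulin genes (2 higher), 59 vesicle traffic genes (11 higher, 2 lower) and 33 solute carriers (4 higher, 2 lower) the medians of 0.68, 0.70 and 0.77 became -0.16, -0.10 and -0.03 on the median-ratio scale. For 56 zinc finger genes, with 4 higher and none lower, the median of 0.02 became -0.68.

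**Figure D5:**
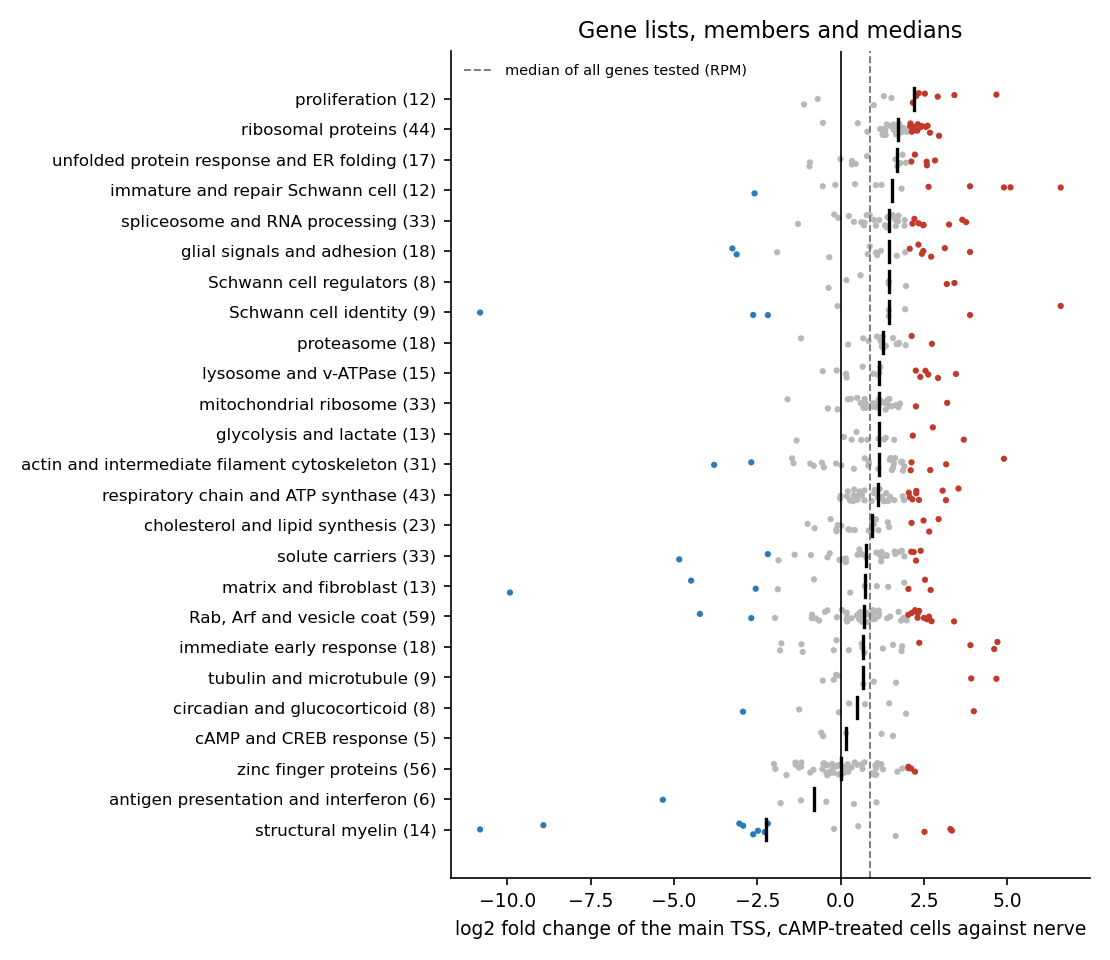
Difference of each gene's main TSS between cAMP-treated cells and nerve (x axis, log2), for the lists with at least 5 genes tested, with that number in brackets. Red points were called higher, blue points lower, the short black lines are list medians and the dashed line is the median of all 2945 genes (0.90); the structural myelin list lies farthest to the left and the proliferation list farthest to the right.

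Immediate early genes, which respond within minutes to many stimuli, were mixed. Of 18 tested, 4 were higher (22.2%, against 14.4% of all genes) and none lower. These 4 were Fos, Dusp6, Gadd45a and Ier3, the last 2 named after their values were seen, whereas on the median-ratio scale 3 were higher and 2 lower and the median of 0.69 became -0.11. The 5 genes tested of a list of cAMP and CREB responses held no call on either scale, and their median of 0.17 became -0.60 on the median-ratio scale. Nr4a1, a nuclear receptor, was at 34.9 and 43.7 RPM in nerve, at 12.9, 14.6 and 11.9 RPM in control cells and at 142, 110 and 104 RPM in treated cells, a difference from nerve of 1.57 (0.74 on the median-ratio scale). Etv1, an ETS factor, was at 30.1 and 20.2 RPM in nerve, at 26.1, 14 and 11.4 RPM in treated cells and at no more than 0.0194 RPM in control cells. Of 8 circadian and glucocorticoid response genes 1 was higher and 1 lower (12.5% each, against 14.4% and 3.94% of all genes). Ddit4, an inhibitor of mTORC1, was higher (means of 17.4 ± 12.1 and 260 ± 13.2 RPM, with 4.68 ± 3.04 RPM in control cells) and Tef, a clock output factor, was lower (means of 19.9 ± 1.04 and 2.66 ± 3.08 RPM), while the median of 0.50 became -0.26 on the median-ratio scale.

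Nerve also holds fibroblasts, perineurial, vascular, immune and fat cells, and the table bore on these only in part. No member of the endothelial (30 genes) or neuronal (16 genes) list had a tested TSS. Of 37 macrophage and immune genes 2 were tested, Gpsm3 and Csf1r, and their main TSSs summed to 11.1 and 7.89 RPM in the nerves with no read in any treated or control library. The paper lists Gpsm3 among genes with a TSS lowered by SOX10 loss in S16 cells, so it does not mark immune cells alone. Summed over its candidate TSSs, Gpsm3 was at 3.01 RPM in the first control library. Of 19 adipocyte genes 3 were tested, with sums of 110 and 52.2 RPM in the nerves and 11.6, 2.83 and 1.22 RPM in treated cells. Cfd, the adipokine adipsin, was the most abundant of these at 76.1 and 34.9 RPM in nerve and, like G0s2, had no read in treated cells. Of 13 perineurial genes Itgb4 alone was tested. Of 6 antigen presentation and interferon genes tested, Ifitm2 alone was called, and it was lower (16.7%, against 3.94% of all genes). On the median-ratio and TMM scales 2 of the 6 were lower.

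Of 50 matrix and fibroblast genes 13 were tested, with 3 higher and 3 lower (23.1% each, against 14.4% and 3.94% of all genes) and a median of 0.72 that became -0.12 on the median-ratio scale. Their main TSSs summed to 5507 and 5885 RPM in the nerves and 8559, 8216 and 9093 RPM in treated cells, most of it Sparc. The lower members Igfbp6, Col6a1 and Clec3b had no read in treated cells at these TSSs, so they passed the filter through nerve alone, and Pdgfra, a defining fibroblast receptor, had means of 3.11 ± 0.857 and 0.113 ± 0.195 RPM in nerve and treated cells. The higher members were Col1a1, Timp3 and Col16a1, none of which held its call on the median-ratio scale. Col1a1, the main fibrillar collagen chain, was at 110 and 96.2 RPM in nerve, at 456, 366 and 459 RPM in treated cells and at 790, 891 and 892 RPM in control cells. Of 18 pericyte and smooth muscle genes 3 were tested, of which Mcam, an adhesion molecule, was higher (means of 9.64 ± 1.95 and 162 ± 4.02 RPM), and Pdgfrb and Smtn were not called and near silent in control cells. In treated cells Pdgfrb was at 24.9, 22.4 and 26.9 RPM (63.2% of nerve) and Smtn at 18.4, 18 and 15 RPM (72.6%). Both were called higher in treated than in control cells (differences of 3.84 and 4.17). The part of such cells in the differences was not tested.

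The label of the cells was checked against 14 Schwann cell markers, of which 9 were tested. In each treated library Sox10, S100b, Mbp, Erbb3, Ngfr, Ncam1 and Egr2 were well above the floor, as was Pmp22 at its downstream TSS. The main TSSs of the 9 markers summed to 59000 and 60660 RPM in the nerves and to 7418, 6605 and 6879 RPM in treated cells, and Pmp22 was the most abundant in nerve. The main TSS of Pmp22 is the upstream one, so these sums leave out its downstream TSS.

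The lower TSSs were concentrated in few genes. The 400 lower TSSs with a gene symbol lay in 197 genes, and the 455 higher ones in 438. The nuclear long noncoding RNA Malat1 held 35 lower TSSs of 57 tested, Fth1 15 of 16, Pmp22 14 of 21, Cryab 14 of 18 and Igfbp6 13 of 18, and none of these genes had a higher TSS. Over all TSSs tested 9.13% were lower and 9.71% higher. TSSs of 1 gene share its transcription and are not independent. Summed over its candidate TSSs, Malat1 in treated cells held 26.1% of nerve. Another 5 genes held a TSS of each direction, Cmtm5, Col1a1, Id4, Klhl9 and Pa2g4. In Klhl9, an adaptor of a ubiquitin ligase, the TSS at rn5 chr5:111299097-111299157 rose while the other fell, and its share of the gene's reads was 38.5% in nerve and 100% in treated cells.

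The classes were also described by overlap with nerve peaks and by width, which the calls had not used. Every candidate had been chosen for lying within 1 kb of such peaks, so the shares depend on that choice. Of the lower TSSs 29.5% overlapped a SOX10 peak and 85.8% an H3K4me3 peak of nerve, of the higher ones 68.5% and 97.6%, and of all TSSs tested 54% and 90.1%. The median width was 28 bp for lower, 72 bp for higher and 60 bp for all TSSs. With only the main TSS of each gene, the shares in a SOX10 peak were 55.2%, 71.2% and 71.3% and the median widths 83.5, 76.5 and 78 bp. These are descriptions without a test, since TSSs of 1 gene share peaks.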

How the data were processed

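Tn5Prime reads the 5′ ends of captured transcripts, and the values analysed are RPM at candidate TSSs in 2 sciatic nerve, 3 control and 3 cAMP-treated primary Schwann cell libraries. Reads were trimmed by the authors with cutadapt 1.14 and aligned to rn5 by STAR 2.5.2a. Alignments were handled with SAMtools 1.9, Make_CTSS sorted reads by start position and Paraclu formed the clusters that serve as TSSs. The authors counted reads with featureCounts (Subread 1.6.1) and deposited RPM per TSS and library, scaled to the whole library, for TSSs within 1 kb of a nerve H3K4me3 peak that overlaps a SOX10 peak. The log2 fold changes and FDR-corrected p-values that the authors deposited, from their edgeR 3.24.3 comparisons of cAMP with control cells and of S16 lines, were not used. Positions are as deposited.

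TSSs above 1 RPM in at least 2 of the 5 libraries compared were kept. Log2(RPM + 1) was fitted with limma 3.58.1 (lmFit, eBayes with trend, R 4.3.3) on the nerve and cAMP libraries alone without covariates, with Benjamini-Hochberg adjustment across the TSSs tested. A call needed an adjusted p under 0.05 and a log2 difference of 2 or more in either direction. A pseudocount of 1 understates the change of low TSSs. An exact permutation test of 2 against 3 libraries cannot go below p = 0.1, so none was made. In each of the 8 libraries 100% of the values were whole multiples, within 0.05 of a read, of the value of a single read. Library totals follow from that value, and so do the reads given to edgeR 4.0.16 and DESeq2 1.42.0, run as alternatives. Gene lists used 1 TSS per gene, the one with the highest mean of both group means, and were described by counts and medians without a set test. Named genes were the 12 called genes with the largest change in each direction among TSSs whose higher group averaged 10 RPM or more and whose libraries did not overlap, the structural myelin genes, up to 4 most abundant members and the called extremes of each other list, Sox10, Egr2 and Jun, and the 6 most abundant genes with an interval within 2-fold of nerve. Further genes were named after their values were seen, and 1 gene is not reported here. The members, lists and tests were chosen with earlier results of these data known. Replicate numbers did not pair the nerve and cell libraries. The script was tested on simulated data. S16 libraries entered only an alternative fit.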

Additional observations from a re-analysis of the deposited data

How the results depend on the processing

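The counts of higher and lower TSSs, 457 and 430, became 145 and 812 with median-ratio scaling and 172 and 732 with TMM scaling. The median log2 fold change of all TSSs, 0.33, reversed to -0.40 and -0.27, and it was 0.93 over TSSs with a mean of at least 5 RPM, where 202 were lower. With a pseudocount of 5 the counts were 262 and 108, with a log2 threshold of 1 they were 1296 and 807, with a threshold of 3 they were 113 and 147, and limma's treat against 1 gave 282 lower. Sums per gene gave 130 lower genes. The cause of these shifts was not tested, apart from thresholds and filters, which change what is counted. With median-ratio scaling 50% of TSSs were within 2-fold of nerve, 3.19% at least 4-fold above it and 17.7% at least 4-fold below it. Leaving out 1 library gave between 395 and 530 higher and between 311 and 445 lower TSSs. With 1 nerve left out, between 39.5% and 43.3% were within 2-fold, between 9.43% and 12.7% at least 4-fold above and between 9.6% and 13.3% at least 4-fold below nerve, the other nerve being assumed to vary like the rest. The structural myelin median of -2.23 became -3.07 with median-ratio and -2.92 with TMM scaling.

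A fit with a replicate block gave 468 higher and 477 lower TSSs. Libraries of equal number did not deviate together (r = -0.00353 and 0.02 over TSSs), so the numbers do not pair them. Of 146 named TSSs, 72 were called, 51 of these under all 21 alternatives but the log2 threshold of 3, and none reversed. edgeR gave 495 and 503 and DESeq2 512 and 549.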
